A study of Mus musculus with 12 samples.

Results

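Aquaporin-1 is the water channel of the proximal tubule, the thin descending limb of Henle and the vasa recta. Water leaves the descending limb and the vasa recta through it, and mice without it concentrate their urine poorly and build up a weaker osmotic gradient in the medulla. Cells of the inner medulla meet high salt and urea and hold osmolytes, chaperones and prostaglandin-forming enzymes that go with that milieu. Knockout mice compared with each other show how far animals of 1 genotype differ on the array, which is the scale on which any difference between genotypes is read.

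Of the 12 two-colour arrays in the series, the 3 analysed here pair knockout mice with each other, and they were chosen because both channels of their titles name a knockout mouse. They form a closed loop: KO1 (channel 1) against KO2 (channel 2), KO2 against KO3, and KO1 against KO3. The other 9 arrays comprise 3 that pair wild type mice in a loop of the same orientation and 6 that pair a knockout with a wild type mouse. The samples were aRNA, as the labels call it, from the kidney inner medulla of 3 adult aquaporin-1 knockout mice (KO1 to KO3) and 3 adult wild type mice (WT1 to WT3), and no treatment is named. Each mouse was on 4 arrays, 2 of them in each channel, so the 3 knockout mice are the replicates and the arrays of 1 mouse share its RNA. Strain, sex and the allele that was deleted are not given in the sources used here. Channel 1 carried a green and channel 2 a red dye.

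Each array holds 15600 clones of a mouse complementary DNA set, none of them missing, and every value is the transformed channel 1 signal minus the transformed channel 2 signal. The scale is log2 for signals above the background noise and linear below it, so a value of 1 on a bright clone is a doubling and a value of 1 on a dim clone is not a fold change. The table holds ratios only. The level of a medullary marker could therefore not be given, the signal of identified clones served only for a rule on signal against background (below), and no clone of aquaporin-1 itself is identified by the layout held here. That layout identifies 572 clones, all from 4 well positions, and describes 336 of them, so that most clones below appear in counts without a gene name.

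The knockout arrays had the widest spread of the series. The SD over clones was 0.90 for KO1 against KO3, 0.69 for KO2 against KO3 and 0.61 for KO1 against KO2. These were the widest, the second widest and the fifth widest of the 12 arrays. The 3 wild type pairs lay between 0.40 and 0.58 and the 6 mixed arrays between 0.48 and 0.65. On KO1 against KO3 16.9% of clones lay beyond 1 in either direction and 4.6% beyond 2. On KO2 against KO3 the shares were 11.9% and 1.62%, and on KO1 against KO2 they were 10.6% and 1.22%. Counts beyond 1 were close to even in both directions, with 1352 clones above 1 and 1285 below -1 on KO1 against KO3, 889 and 967 on KO2 against KO3, and 787 and 874 on KO1 against KO2.

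If the 3 arrays measured 3 mice and nothing else, KO1 against KO2 plus KO2 against KO3 would equal KO1 against KO3 in each clone. The sum minus the third array had a median of 0.04 and an SD of 0.91, against an SD of 1.00 for the sum and 0.90 for the third array. It lay within 0.5 of zero for 50.1% of clones, within 1 for 76.9%, and beyond 2 for 579 clones (3.71%). The 2 routes from KO1 to KO3 correlated at r = 0.54 over the 15600 clones (Spearman's rank correlation 0.53), which share the arrays and are not replicates. Where KO1 against KO3 lay beyond 1, the sum of the other arrays had the same sign for 2296 of 2637 clones (87.1%), and where both routes lay beyond 1 the sign was shared by 1311 of 1335 (98.2%). Among the 579 clones whose loop was open by more than 2, the array with the value farthest from 0 was KO1 against KO3 for 266 (45.9%), KO1 against KO2 for 161 (27.8%) and KO2 against KO3 for 152 (26.3%).

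**Figure D1:**
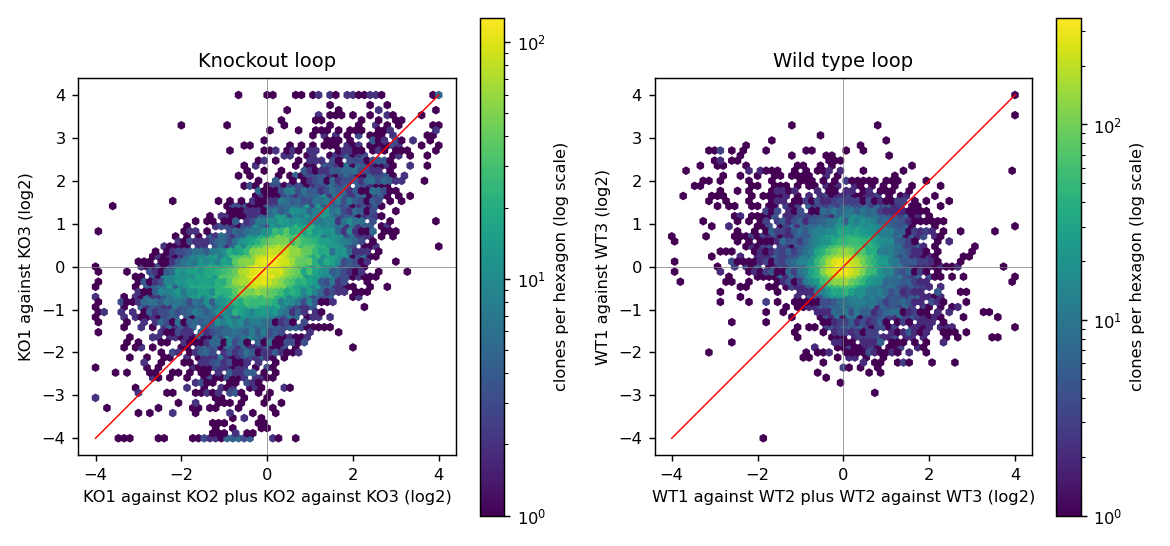
Loop closure over 15600 clones: the horizontal axis is the sum of the 2 arrays that run through mouse 2, the vertical axis the array of mouse 1 against mouse 3 (both log2, values beyond 4 drawn at 4), colour is the number of clones on a log scale, and the red line marks a closed loop. The 2 routes correlate at r = 0.54 in the knockout loop and at r = -0.13 in the wild type loop. The closure sum is within 0.5 of zero for 50.1% of clones in the knockout loop and for 62.3% in the wild type loop.

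The wild type loop, laid out in the same channels, did not show this agreement between routes. Its 2 routes correlated at r = -0.13, and where WT1 against WT3 lay beyond 1 the sum had the same sign for 516 of 1272 clones (40.6%). The SD of its closure sum, 0.90, was nevertheless close to that of the knockout loop. Its median absolute deviation (scaled to an SD) was narrower, at 0.54 against 0.74, and its far tail was heavier, with 783 clones (5.02%) beyond 2. In limma, no clone passed an adjusted p under 0.05 for the closure term of the knockout loop (0%, lowest adjusted p = 0.415), for that of the wild type loop (0%, lowest 0.571) or for the difference between both terms (0%, lowest 0.705). Without adjustment, p was under 0.05 for 1338, 1192 and 1069 clones, and with each clone's own variance no clone passed either. These tests have 4 residual degrees of freedom, so a count of 0 does not show that the loops closed.

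The clones farthest from closure show what an open loop looks like. H3149D02, not described in the layout held here, was at -0.27 on KO1 against KO2, at -1.87 on KO2 against KO3 and at 1.57 on KO1 against KO3, which puts the sum and the third array on opposite sides of 0 and leaves the loop open by -3.71. H3017E09 was at -1.73, -3.10 and -0.14 on the same arrays, so that both short steps were negative and the long one was near 0 (-4.69). The described clones with the largest closure t carry database names only. H3106H01 (AI449705) was at -3.56 on KO1 against KO3 but at 0.15 and -0.33 on the other knockout arrays. H3101H01 (LOC266312) was at 1.95 on KO1 against KO3, and at -0.54 and 0.13 on the other arrays. H3017G07 (LOC211623) was at 1.48 on KO2 against KO3, with 0.18 and -0.43 on the arrays of KO1. In each of these 3 clones 1 array lay beyond 1 and the other arrays did not. None of the 3 passed the rule on signal against background (below).

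A part of the agreement in the knockout loop was also seen on arrays that hold none of its mice. WT1 against WT3 correlated at 0.51 with KO1 against KO2, at 0.48 with KO1 against KO3 and at 0.29 with KO2 against KO3. WT1 against WT2 ran the other way, at -0.35, -0.26 and -0.16. Within the loop itself the correlations were 0.48 between the arrays that share KO3, 0.35 between those that share KO1, and 0.18 between those that share KO2, where the opposite channels would give a negative value. Over the 15 combinations of a knockout array with an array that shares none of its mice, r ranged from -0.35 to 0.51. Of the 12 combinations with an array that sets a shared knockout mouse against a wild type mouse, 7 correlated in the direction of the shared mouse and 5 against it. KO1 accounts for 4 of those 5. With KO1 in channel 2, WT2 against KO1 and WT3 against KO1 should mirror the arrays with KO1 in channel 1, yet they correlated at 0.19 and 0.30 with KO1 against KO2 and at 0.28 and 0.37 with KO1 against KO3. The channels were taken from the labels, and the names of the scanner files give the same order of mice for both of these arrays. The channels were not checked against the images, and every value of KO1 through a wild type mouse rests on them.

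**Figure D2:**
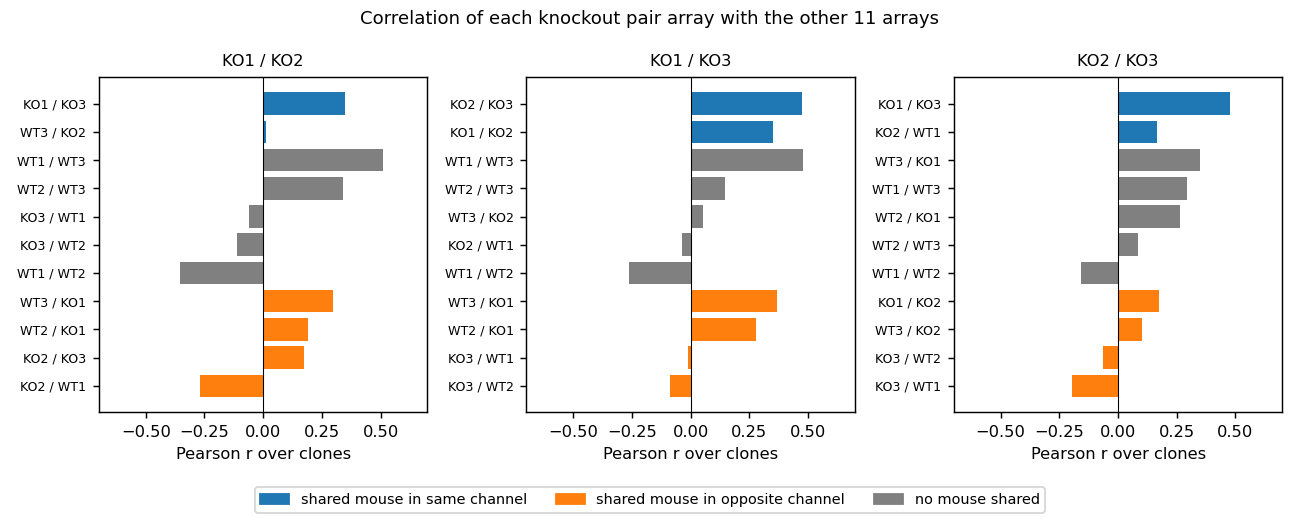
Pearson correlation over 15600 clones of each knockout array (panel) with the other 11 arrays (bars), named as channel 1 / channel 2. Blue bars share a mouse in the same channel, where a mouse difference gives a positive r, orange bars share it in the opposite channel, where it gives a negative r, and grey bars share no mouse; WT1 / WT3 reaches 0.51, and the 4 orange bars of arrays with KO1 in channel 2 are positive, from 0.19 to 0.37.

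A dye effect of each clone enters all arrays with the same sign. With the dye effect of the 12-array fit subtracted, the 2 routes through the knockout loop correlated at 0.27 in place of 0.54, and the same-sign share beyond 1 was 69.6% in place of 87.1%, while the SD of the closure sum stayed at 0.93. With the 3 wild type arrays regressed out of each knockout array instead, which took up 33.4% of the variance of KO1 against KO2, 24.0% of that of KO1 against KO3 and 8.91% of that of KO2 against KO3, the routes correlated at 0.38. After subtraction of the dye effect, 8 of the 12 combinations above followed the shared mouse, while r over the 15 combinations without a shared mouse still ranged from -0.41 to 0.35. With WT1 against WT3, r was then 0.35 for KO1 against KO2, 0.21 for KO1 against KO3 and -0.01 for KO2 against KO3. With WT1 against WT2 it was -0.33, -0.41 and -0.22 in the same order. The part of the dye and of the wild type arrays in the knockout differences was not tested.

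The same mouse differences can be taken through a wild type mouse, on arrays that do not enter the loop. In the routes through WT1 and WT3 a dye effect that is equal on all arrays cancels, while the pair array carries it. KO2 minus KO3 through WT1 followed the pair array (r = 0.31, or 0.38 with the fitted dye effect removed), with the same sign for 1430 of the 1856 clones beyond 1 (77.0%). KO1 minus KO2 through WT3 ran against it (r = -0.23, or -0.16 with the dye effect removed), with the same sign for 517 of 1661 (31.1%). KO1 minus KO3 through WT2 gave r = -0.11, with 1147 of 2637 (43.5%), and here the dye effect enters the wild type route with a weight of -2 and the pair array with a weight of 1. With the fitted dye effect removed from both, r was 0.41, although that effect is estimated in part from the same arrays. In limma, 0% of clones passed for an offset between the knockout arrays and the arrays through wild type mice (lowest adjusted p = 0.0704; 1388 at an unadjusted p under 0.05; none with each clone's own variance), where 3 residual degrees of freedom remained.

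**Figure D3:**
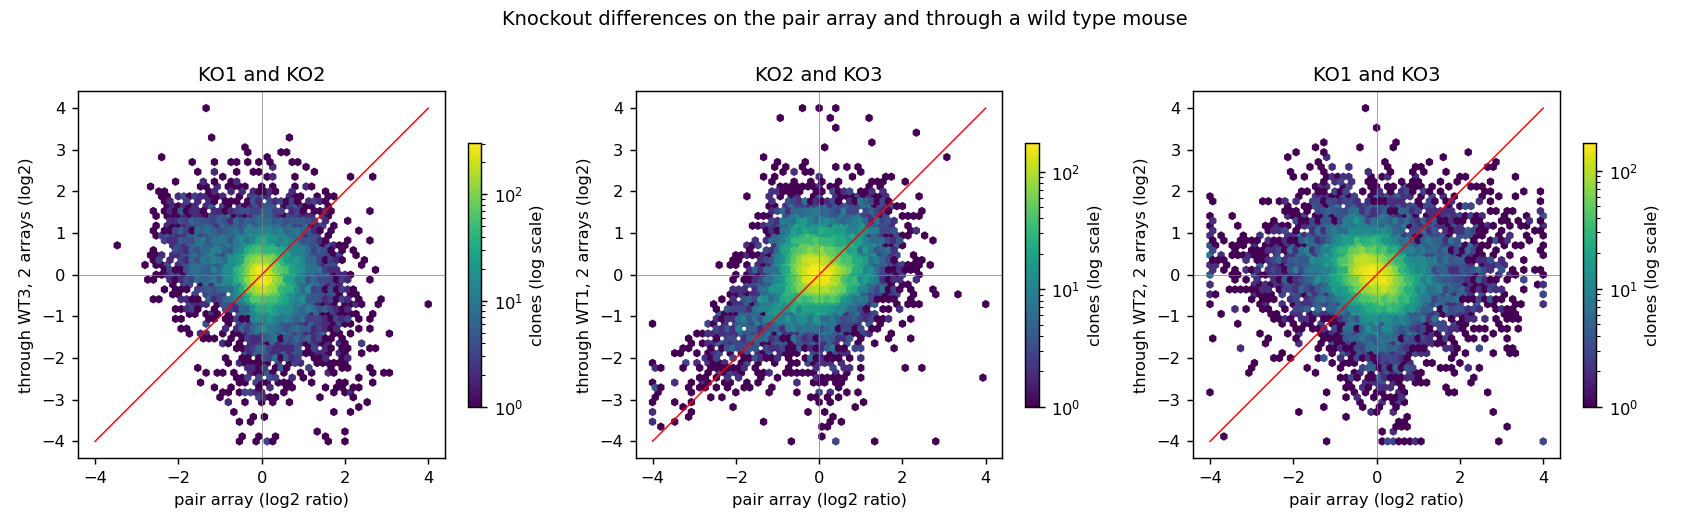
Difference between 2 knockout mice on their pair array (horizontal, log2) and through the wild type mouse both were paired with (vertical, log2) for 15600 clones, with colour for the number of clones on a log scale, values beyond 4 drawn at 4 and the red line marking equality. For KO2 and KO3 the clones low on the pair array are also low through WT1 (r = 0.31), for KO1 and KO2 the cloud leans the other way (r = -0.23), and for KO1 and KO3 r is -0.11.

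The clearest difference between knockout animals lay in clones higher in KO3 than in KO2. On the pair array 203 clones were below -2, with a median of -2.42. Through WT1 199 of these (98.0%) were also lower in KO2, 172 of them by more than 1, with a median of -1.76. KO3 was in channel 2 on the pair array and in channel 1 against WT1, and a dye effect that is equal on all arrays cancels in the route through WT1. By the names of the scanner files, the pair array and KO3 against WT1 were on the same day and KO2 against WT1 on another. The part of the day in this agreement was not tested. The other knockout arrays, as KO1 against KO3 minus KO1 against KO2, gave the same sign for 187 (92.1%) and a median of -0.99. The 203 clones came from 101 of the 163 plates, at most 8 from 1 plate. In the opposite tail, 50 clones were above 2 on the pair array and 28 of them (56.0%) had the same sign through WT1. On KO1 against KO3, of the 311 clones below -2 the loop gave the same sign for 285 (91.6%) and the route through WT2 for 111 (35.7%), and of the 407 above 2 the shares were 95.1% and 56.5%. A dye effect enters this loop sum with the sign it has on the pair array, and the route through WT2 with the opposite sign. These shares were not corrected for it. On KO1 against KO2 the loop gave the same sign for 71 of the 74 clones above 2 (95.9%), and the route through WT3 for 12 (16.2%). Of its 117 clones below -2 the loop gave the same sign for 84 (71.8%), with a median of -0.23 against -2.22 on the pair array, and the route through WT3 for 19 (16.2%).

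In the fit of all 12 arrays by limma, which estimates 5 differences between 6 mice and 1 dye effect, 259 clones (1.66%) differed among the 3 knockout mice at an adjusted p under 0.05. By pair, 284 clones (1.82%) differed between KO1 and KO3, of which 142 were higher in KO1 and 142 in KO3, and 393 (2.52%) between KO2 and KO3, of which 61 were higher in KO2 and 332 in KO3. None differed between KO1 and KO2 (0%, lowest adjusted p = 0.0651, 1243 clones at an unadjusted p under 0.05, none with each clone's own variance). The pairs with KO3 shared 143 clones, 50.4% of the first list and 36.4% of the second, and KO3 was higher in 114 of them and lower in 29. KO3 enters both pairs, so this overlap is in part built in. Among the 259 clones the mouse farthest from the other 2 was KO3 for 190 (73.4%, 153 higher and 37 lower), KO1 for 44 (40 higher) and KO2 for 25 (23 lower). Over all clones KO3 was the farthest mouse for 41.2%. The median range over the knockout mice was 1.61 for these clones and 0.36 for all clones. Their median range over the wild type mice, whose arrays enter the same fit, was 0.46 against 0.27 for all clones. The 259 clones were called in this fit for differing among the knockout mice. Their wide knockout range, also beside the wild type range, is therefore built in and does not compare the genotypes.

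The names of the scanner files place all 4 arrays with KO3 on 2 days and no other array on those days, so KO3 and those days cannot be told apart. The remaining scanner file, by elimination that of KO1 against KO2, gives no day in its name and is named a rescan of its slide. The part of the rescan in its values was not tested. With a dye term for each day, 4 clones passed among the knockout mice, 94 between KO2 and KO3 and 0 between KO1 and KO3, so that the calls for KO1 and KO3 below, Birc6, Pea15, Igfbp3 and SRp20 among them, end under that setting. The counts also rested on single arrays. Without the array of KO2 against KO3, the count among knockout mice fell to 4 and that between KO2 and KO3 to 0, and without KO1 against KO3 that between KO1 and KO3 fell to 2. Leaving out WT3 against KO1, WT1 against WT2 or KO3 against WT2 kept the count among knockout mice within 1.5 times of 259, and leaving out any one of the other 9 arrays gave 4 to 155. Leaving out a whole mouse with its 4 arrays gave 84 clones without KO2, 33 of them among the 259, and 0 without any one of the other 5 mice. These fits had fewer residual degrees of freedom, and without a knockout mouse the test was that of the remaining pair. With each clone's own variance, 1 clone passed among the knockout mice, 1 between KO1 and KO3 and 55 between KO2 and KO3. The 3 knockout arrays alone leave 1 residual degree of freedom and allow no dye term, so a dye effect enters their mouse differences. In that limma fit 0% passed (lowest adjusted p = 0.12, 2628 clones at an unadjusted p under 0.05, 4 with each clone's own variance). On the 9 other arrays alone, fitted with the dye term, 0% passed as well (lowest 0.051, 1086 clones unadjusted, none with each clone's own variance).

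**Figure D4:**
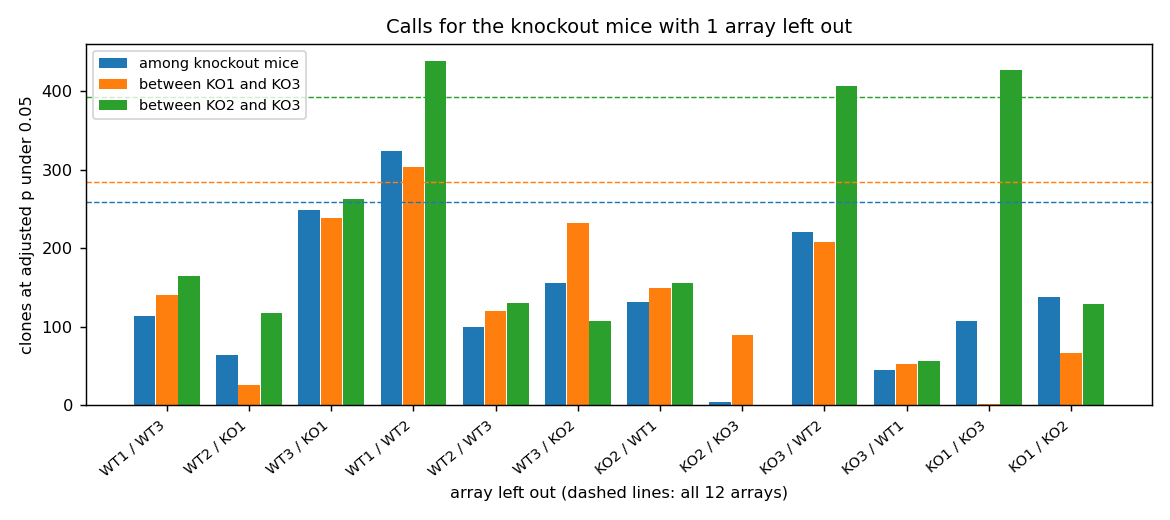
Number of clones at adjusted p under 0.05 in limma (vertical axis) when the array named on the horizontal axis is left out, for the 3 knockout mice together and for 2 of the pairs; dashed lines mark 259, 284 and 393 with all 12 arrays. The count for KO2 and KO3 is 0 without the array that pairs them, and that for KO1 and KO3 is 2 without theirs.

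Across mice, the spread of the fitted effect around the genotype mean, as an SD over clones, was 0.26 for KO1, 0.23 for KO2 and 0.30 for KO3, and 0.19, 0.21 and 0.19 for WT1, WT2 and WT3. The knockout mice lay above the wild type mice without overlap, with means of 0.27 and 0.20. An exact two-sided permutation test over the 6 mice gave p = 0.1, the smallest that 3 against 3 allows, and the 3 deviations of a genotype sum to 0. With the arrays scaled to one spread the order was lost, at 0.22 for the knockout and 0.23 for the wild type mice (exact permutation p = 0.9).

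Of the 336 described clones, 12 passed for the knockout mouse term or for a pair, and 8 of these for the mouse term. The mouse term called 1.66% of all clones. The mouse farthest from the others was KO3 for most of the 12, KO1 for some and KO2 for 1210001E11Rik. Catna1 (clone H3044G01), alpha-catenin, which ties cadherins at cell junctions to actin, had the largest F. It was at 0.22 on KO1 against KO2, -4.22 on KO2 against KO3 and -2.29 on KO1 against KO3, and through wild type mice at -3.22 for KO2 minus KO3 and -1.93 for KO1 minus KO3. Both arrays with KO3 and both wild type routes place it higher in KO3. The fitted differences were -3.28 ± 0.40 (SE) for KO2 minus KO3 (limma adjusted p = 0.00676) and -2.90 ± 0.40 for KO1 minus KO3 (adjusted p = 0.0168), while the wild type mice spanned 0.36. Birc6 (H3134H07), a giant ubiquitin-conjugating member of the inhibitor of apoptosis family, was at 0.32, -2.0 and -3.29 on the same arrays and differed by -2.29 ± 0.34 between KO1 and KO3 (adjusted p = 0.0201). A clone described only as a cyclin (H3118H07) was at -0.24, -1.78 and -1.26, with a difference of -1.84 ± 0.26 for KO2 minus KO3 (adjusted p = 0.0136). Of these 3, only the cyclin clone passed a rule on signal set after the software of the study, which asks that in 1 or more mice 51% or more of the measurements lie above background by 2 of its SDs, the stricter of its usual settings. Catna1 and Birc6 did not meet it in any mouse.

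The other clones higher in KO3 changed less. H3127H07, described as an ecotropic virus integration site, was at 0.10, -1.17 and -1.31 on the 3 arrays, Stk19 (H3151H07), named as a serine/threonine kinase, at 0.42, -1.08 and -0.65, and H3044G07, a genomic clone sequence, at 0.10, -1.91 and -0.71. The gaps between KO2 and KO3 in the fit were -0.97, -1.05 and -1.26 (adjusted p 0.0312, 0.0489 and 0.0461). For 1210001E11Rik (H3159G01), at 1.29, -0.90 and -0.42, KO2 was the low mouse, with -1.18 ± 0.19 for KO2 minus KO3 (adjusted p = 0.0251). Lower in KO3 were 0610008K04Rik (H3108G07), at 0.27, 2.26 and 1.67, and Pea15 (H3014G07), a phosphoprotein that binds ERK kinases and death effector domains, at 0.66, 1.57 and 1.08. The first was 1.44 ± 0.17 higher in KO2 than in KO3 (adjusted p = 0.00661) and the second 1.05 ± 0.20 higher in KO1 than in KO3 (adjusted p = 0.0398). Through WT1, KO2 minus KO3 was 1.375 for 0610008K04Rik and 0.861 for Pea15. Through WT2, KO1 minus KO3 was -0.179 and 0.247 before any dye effect was removed. The dye effects in the fit were 0.62 and 0.29. They enter the route through WT2 with a weight of -2, which lowers both values. H3127H07, H3044G07 and H3108G07 did not pass the rule on signal, and Pea15 passed it in no knockout mouse.

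KO1 stood apart in other clones. Igfbp3 (H3154G07), which binds insulin-like growth factors and holds them from their receptor, was at 1.99 on KO1 against KO2, 0.23 on KO2 against KO3 and 1.36 on KO1 against KO3. The routes through wild type mice, at 0.76 for KO1 minus KO2 and 1.85 for KO1 minus KO3, also placed it higher in KO1. KO1 exceeded KO3 by 1.59 ± 0.27 in the fit (adjusted p = 0.0294), and the clone passed the rule on signal. The splicing factor SRp20 (H3025G01) was at 1.17, 0.76 and 2.36, and 1.31 ± 0.24 higher in KO1 than in KO3 (adjusted p = 0.0369), with a dye effect of 0.72 in the same fit.

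**Figure D5:**
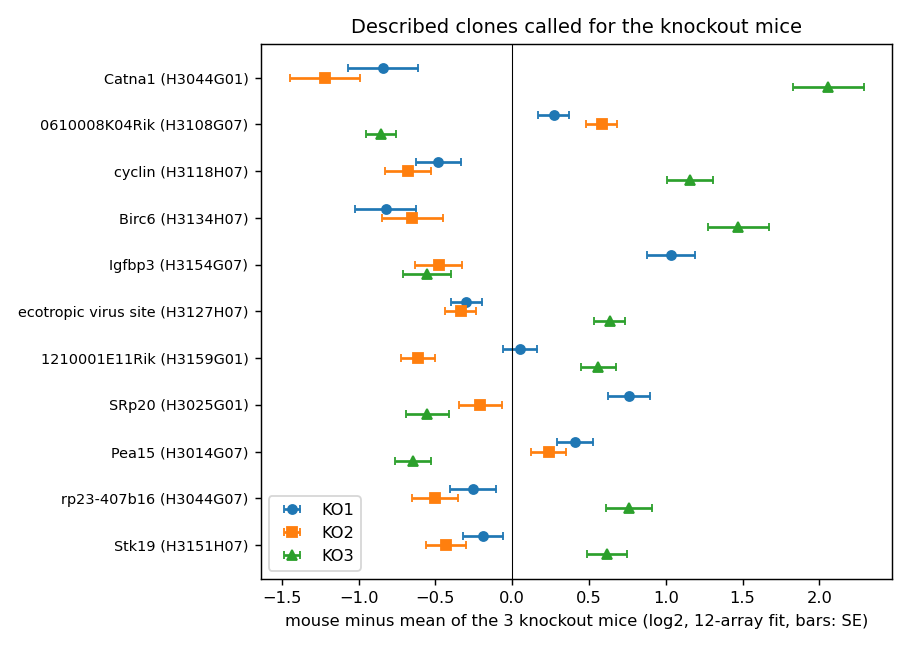
Fitted effect of each knockout mouse minus the mean of the 3 (log2, 12-array fit, bars are the SE) for 11 of the 12 described clones that passed for the knockout mouse term or for a pair, ordered by F from the top. KO3 (triangles) is apart from KO1 and KO2 for most of them, from 2.06 for Catna1 to -0.85 for 0610008K04Rik, and KO1 (circles) is apart for Igfbp3 and SRp20.

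Clones without a description reached larger differences. H3081A10 was at 0.54, -3.78 and -4.95 on KO1 against KO2, KO2 against KO3 and KO1 against KO3, and KO3 exceeded the mean of the others by 3.88 (adjusted p for the mouse term 0.00295). H3052G09, at 0.03, -4.36 and -2.99, followed with 3.17. Lower in KO3 were H3046D08, at 1.47, 1.51 and 2.61, and H3018D12, at 0.74, 1.44 and 2.79, where KO3 minus the mean of the others was -1.97 and -1.87.

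Gene groups were read by their counts, their median and the median over all clones, for which KO3 minus the mean of KO1 and KO2 was 0.01 and the range over the knockout mice 0.36. Over all 15600 clones KO3 was lower than that mean for 7576 and higher for 8024. Translation had the largest shift. KO3 was lower for 10 of 11 clones of ribosomal proteins and translation factors (median -0.79), and none of them passed the test for the mouse term (lowest adjusted p = 0.248). The narrowest range in the list was that of H3084G07, similar to ribosomal protein L30, at 0.77, 0.73 and -0.35 on KO1 against KO2, KO2 against KO3 and KO1 against KO3. The median of the list was 0.67, 0.99 and 1.05 on the 3 knockout arrays, but it was also 0.66 on WT1 against WT3 and -1.39 on WT1 against WT2. Its range over the wild type mice, 0.55, was not far below the 0.86 over the knockout mice. Against WT1 the list's median was 0.275 for KO2 and 0.189 for KO3. These are medians of separate arrays, so their gap is not the counterpart of the 0.99 on the pair array. Clone by clone, KO2 minus KO3 through WT1 took both signs within the list.

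Mitochondrial energy genes lay lower in KO3 for 9 of 11 clones (median -0.44), again with none called. The voltage-dependent anion channel of the outer membrane (H3133H07) came closest, at 2.20, 0.32 and 1.61 (adjusted p = 0.0537). There KO1 was the mouse apart, at 0.89 from the knockout mean in the fit, with KO2 at -0.60 and KO3 at -0.30. A clone similar to cytochrome c oxidase III (H3120H07) had the widest range, at 1.59, 0.54 and 3.02, and a second clone of the same description (H3102H01) the narrowest, at 0.35, 0.17 and 1.81. The list's median was 0.25, 0.52 and 1.58 on the knockout arrays and 0.90 on WT1 against WT3, and its median dye effect was 0.36. Against WT1 the list's median was -0.51 for KO2 and -0.49 for KO3, and clone by clone KO2 minus KO3 through WT1 took both signs. Across the list these arrays did not repeat the lower position of KO3 relative to KO2. Heat shock and osmotic stress genes, which include chaperones that renal medullary cells carry at high osmolality, were lower in KO3 for 5 of 6 clones (median -0.50, none called). Hsp86-1 (H3023G01) had the widest range, at 1.25, 0.85 and 2.35, and Fkbp4 (H3079G07) the narrowest, at 0.02, 0.84 and 0.42. Osp94 (H3143H07), the osmotic stress protein, was at 0.62, -0.60 and -0.80, the only clone of the list higher in KO3. The median of this list was 0.44 on WT1 against WT3. Against WT1 it was 0.08 for KO2 and -0.51 for KO3, as medians of separate arrays. Clone by clone, KO2 minus KO3 through WT1 was 1.05 for H3133H01 and 1.09 for H3074G01. For the other clones of the list it lay between -0.29 and 0.25. What the wild type array and these lists share was not tested.

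Groups without a shift held single clones that changed. Of 15 clones of the cytoskeleton, adhesion and matrix, 2 passed the mouse term (against 1.66% of all clones), Catna1 among them, and the median range was 0.23. Catns (H3022G01), a catenin, had the narrowest range, at 0.19, 0.34 and 0.20, and the intermediate filament vimentin (Vim, H3119G01) was at 0.11, 0.12 and 0.01. Of 15 clones of growth factor and receptor signalling 1 passed (Igfbp3), again against 1.66%, with a median range of 0.27, and the narrowest was a non-receptor tyrosine phosphatase (H3102G07), at -0.19, 0.12 and -0.05. Of 9 clones of the cell cycle 1 passed (the cyclin), against the same 1.66%, and Kif18A (H3072G01), a mitotic kinesin, was the narrowest, at -0.36, -0.25 and 0.38. Of 13 clones of RNA processing and chromatin none passed the mouse term and SRp20 passed for 1 pair. Zfp207 (H3080H07), a zinc finger protein, had the widest range of that list, at -0.45, -2.54 and -0.95 (adjusted p = 0.154), and Rbbp4 (H3150G07), a histone-binding subunit of chromatin complexes, the narrowest, at 0.05, 0.04 and 0.29.

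None of the 9 clones for prostaglandins, transporters and channels passed, KO3 was higher for 8 of them (median over the list 0.05), and their median range was 0.26. A subunit of the proton-pumping vacuolar ATPase (H3092H01) had the widest range, at 0.82, -1.50 and 0.84, so that KO2 was low against both other mice (adjusted p = 0.135). The narrowest was a GABA transporter (H3152G01), at -0.14, -0.39 and -0.34. Ptges (H3049G07), which forms prostaglandin E2, was at 0.10, 0.04 and -0.04. Among 10 clones of membrane traffic none passed and 8 were lower in KO3 (median -0.11). CD63 (H3075G01), a tetraspanin of late endosomes, was at 1.17, 1.42 and 3.31 (adjusted p = 0.385), and Scamp4 (H3015G07), of secretory carrier membranes, was at 0.09, -0.27 and -0.49.

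Blood and immune cell markers were checked because the tissue holds vasa recta. None of 5 clones passed (lowest adjusted p = 0.539), with ranges over the knockout mice from 0.16 to 0.89. The embryonic globin Hba-x had 2 clones that moved together, H3125H07 at -0.43, 1.05 and 2.12 and H3126H01 at -0.29, 0.93 and 1.44, and over the wild type mice they ranged more widely, by 1.81 and 1.87. The red cell enzyme Bpgm (H3102H07), with the narrowest range of the list, ran the other way at -0.22, -1.16 and -1.24. The Ig mu constant region of B cells (H3085G01) was at 0.44, -0.13 and 0.31, and Gzmm of cytotoxic lymphocytes (H3073G07) at -0.18, -0.61 and -0.28. In such tissue samples fewer cells of a type and less RNA per cell cannot be told apart.

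Genes with 2 clones show how far the arrays repeat themselves on the same transcript. Hba-x and cytochrome c oxidase III (above) gave the same order of the 3 arrays in both of their clones. Gnaq, the alpha subunit of the Gq protein, did not: H3004G01 was at 0.36, 0.49 and 0.28 and H3108H01 at 0.70, -1.84 and 0.35. The clones of Vps26, of the retromer coat, were at 0.94, 0.42 and 0.31 (H3138G07) and at 0.00, -0.61 and 0.69 (H3085H07). Those of the transcription factor E2-alpha were at -0.36, -0.06 and 0.72 (H3134G07) and at 0.01, 0.42 and -0.43 (H3137H01), opposite in sign on each array. Both Gata6 clones were within 0.18 of 0 on all 3 arrays, at 0.03, -0.18 and 0.11 (H3002G07) and at -0.02, 0.15 and 0.07 (H3062H01). None of the 12 clones passed the mouse term. Both clones of Hba-x and of cytochrome c oxidase III passed the rule on signal, while H3004G01, H3085H07 and both clones of E2-alpha and of Gata6 did not.

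Clones with signal above background had wider arrays and a wider closure sum. Among the 572 identified clones, the 127 that passed the rule on signal had an SD of 0.97 in the closure sum and of 1.16 on KO1 against KO3, with r = 0.75 between the 2 routes. The 445 that did not pass had SDs of 0.74 and 0.62, with r = 0.48. The same bright clones correlated at 0.77 between KO1 against KO3 and WT1 against WT3, which share no mouse, against 0.36 for the others. They also had r = -0.36 between KO1 against KO2 and its route through WT3, and r = 0.11 between KO2 against KO3 and its route through WT1, where the clones that did not pass had 0.02 and 0.35. Of the identified clones called for the mouse term, 3 passed the rule (2.36% of the 127) and 6 did not (1.35% of the 445), against 1.66% of all clones. Position on the plate accounted for 1.63% to 2.47% of the variance of the 3 arrays between wells and for 3.01% to 8.59% between plates, most on KO2 against KO3.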

How the data were processed

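RNA from the kidney medulla (named both total RNA and aRNA in the labels) of 3 knockout and 3 wild type mice was hybridised on 12 two-colour arrays. The authors subtracted local background from spot means, applied a linlog transformation whose linear part ends at the median SD of the background, normalised by lowess for intensity and position in their software, and deposited the mean of duplicate spots as channel 1 minus channel 2, on a log2 scale above the crossover. Images had been extracted a second time, per the labels. These deposited log2 ratios (15600 clones, no columns left out) were used as given. Groups follow the sample titles.

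Each clone was fitted by least squares with limma 3.58.1 (R 4.3.3), with 5 mouse contrasts and 1 dye term over all 12 arrays, moderated variances and Benjamini-Hochberg adjustment over all clones. Clones count as called at an adjusted p under 0.05. Closure and route terms were added in separate fits. The fits were tested on simulated data. Correlations over clones are descriptions. Further steps used Python 3.11.15 with scipy 1.17.1.

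Gene names come from the study's layout, of which part was held here, and the rule on signal was applied to spots of those clones. Named are all described clones that were called, those with the largest closure t, at most 2 undescribed clones in each direction and for closure, the widest and narrowest member of each of 11 lists and genes with 2 clones; Vim, Osp94, Ptges, Gzmm, the Ig mu clone and the voltage-dependent anion channel were added after their values were seen. A called clone and a list member that the rule names are not reported here. The mice, lists and members were chosen with earlier results of these data known. The number of arrays limits the precision. No coordinates are given with the clones.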

Additional observations from a re-analysis of the deposited data

How the results depend on the processing

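Counts of called clones depended on the settings. For the 3 knockout mice together, 259 clones became 29 with arrays scaled to one spread, 20 at an adjusted p under 0.01, 153 without the dye term, 1050 with array quality weights, 4 with a dye term for each day named in the scanner files, 1 with each clone's own variance, and 9 with the wild type arrays regressed out, an alternative added after seeing the data. In the same order, 284 clones between KO1 and KO3 became 13, 22, 140, 467, 0, 1 and 0, and 393 between KO2 and KO3 became 67, 47, 255, 1330, 94, 55 and 132. All 259 were among the 1050, and all 393 among the 1330. Leaving out 1 array gave 4 to 324, 2 to 303 and 0 to 438 clones, and leaving out 1 mouse gave 0 to 84, 0 to 84 and 0 to 16. KO1 and KO2 gave 7 clones with array weights, and 0 to 1 with 1 array left out. The offset between routes gave 1 with array weights, the 3 knockout arrays alone 4 with each clone's own variance, and the 9 other arrays 1 with arrays centred on their median. Scaling moved the SD of the knockout closure sum from 0.91 to 0.76, and subtracting the dye effect moved the correlation of the routes from 0.54 to 0.27. The knockout minus wild type difference in mouse spread reversed from 0.0703 to -0.0131 (exact permutation p = 0.9) with scaled arrays. The cause was not tested. Over all results and settings, 67 values moved, 1 reversed and 127 did not; the latter include the counts of 0 that stayed at 0.

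No paired analysis was possible because mice of the same number in the 2 genotypes are different animals and no array pairs them by number.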
